A study of Mus musculus with 4 samples.

Results

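The transcription factor genes *Zic1*, *Zic2*, *Zic4*, *Zic5*, *Six3*, *Six6*, *Rax* and *Vax1* were followed in RNA sequencing data of tdTomato-positive cells sorted from the basal telencephalon of mouse embryos at E16, a region that the study describes as the preoptic area (POA). These 8 genes were chosen by symbol in the GENCODE M21 annotation, and all 8 were found among the 55573 genes counted. The groups were *Hmx3-Cre/tdTomato/Dnmt1* wild type (WT, a pool of 12 embryos) and *Hmx3-Cre/tdTomato/Dnmt1 loxP2* embryos, in which Cre removes loxP-flanked exons and leaves a null *Dnmt1* allele (KO, a pool of 6 embryos), with 2 libraries per genotype. All animals carried the Cre line and the tdTomato reporter on a C57BL/6J background, which confine both the label and the deletion to cells with present or past *Hmx3* activity. The day of insemination was counted as E1. DNMT1 copies DNA methylation onto new strands, and the comparison asks which genes differ without it in the sorted cells, which the labels call premature interneurons. The libraries are called biological replicates in the labels and technical duplicates of pooled samples in the study's methods, so that SDs and p-values measure the spread between libraries, which may be technical.

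The 8 genes lay out the rostral part of the neural tube. ZIC proteins are zinc-finger factors of the dorsal neural tube and medial forebrain, and their genes stand in head-to-head pairs, *Zic1* with *Zic4* and *Zic2* with *Zic5*. SIX3 and SIX6 are homeodomain proteins that recruit cofactors through a family-specific domain and specify the anterior neural plate, eye and hypothalamus, RAX is the homeodomain factor of the eye field and of hypothalamic progenitors and tanycytes, and VAX1 patterns the optic stalk and ventral forebrain.

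CpG dinucleotides are the main substrate of DNMT1, and the stretches before the transcription start of 4 of these genes are shown for that reason. Promoter sequences from RefSeq (GRCm38.p6) were matched by symbol for 6 of the 8 genes, and those of *Zic2* and *Rax* were not analysed here. The bases from 250 to 51 before the start are given 5′ to 3′ on the gene's strand, and capitals mark each CpG. *Zic1* and *Zic5* come from the 2 Zic pairs, and *Six3* and *Vax1* from the other families.
Zic1 (chr9:91365819-91366018, minus strand): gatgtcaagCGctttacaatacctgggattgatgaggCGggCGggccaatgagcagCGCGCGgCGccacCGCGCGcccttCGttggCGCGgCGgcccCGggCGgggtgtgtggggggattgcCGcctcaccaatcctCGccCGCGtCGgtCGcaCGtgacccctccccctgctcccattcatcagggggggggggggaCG
Zic5 (chr14:122465709-122465908, minus strand): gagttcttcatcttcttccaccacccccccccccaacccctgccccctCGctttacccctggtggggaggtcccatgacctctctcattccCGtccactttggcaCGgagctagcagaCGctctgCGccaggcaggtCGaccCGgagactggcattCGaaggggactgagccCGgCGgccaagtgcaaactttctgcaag
Six3 (chr17:85620584-85620783, plus strand): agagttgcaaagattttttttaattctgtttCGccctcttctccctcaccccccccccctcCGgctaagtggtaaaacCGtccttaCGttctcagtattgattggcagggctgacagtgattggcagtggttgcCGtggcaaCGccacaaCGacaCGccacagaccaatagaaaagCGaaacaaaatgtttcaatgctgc
Vax1 (chr19:59170448-59170647, minus strand): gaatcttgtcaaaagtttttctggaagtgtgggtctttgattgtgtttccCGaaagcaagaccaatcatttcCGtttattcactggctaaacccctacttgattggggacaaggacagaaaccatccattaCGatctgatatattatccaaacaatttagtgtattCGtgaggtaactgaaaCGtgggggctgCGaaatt

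The *Zic1* stretch held 24 CpGs, more than in 94.4% of 32817 promoter stretches of the same length, for which the median was 4. *Six6* held 13, *Zic5* 10, *Six3* 9 and *Vax1* 6, all above that median, whereas *Zic4* held 2. The *Zic4* stretch lies inside an annotated *Zic4* exon and 122 bases of the *Six6* stretch lie in an exon of the antisense gene *4930447C04Rik*, so these were not printed. On either strand, the CCAAT box (letters CCAAT) occurred in *Six3* (3 times), *Zic1* and *Vax1* (2 each) and *Six6* (1), and in 28.4% of all stretches. The homeodomain core TAATTA (4.20% of all stretches) and the ZIC core CAGCAGG (6.82%) occurred in 0 of the 6.

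Library totals ranged from 8075102 to 9995968 counts, at which 3 counts correspond to 0.294 to 0.372 CPM (counts relative to the library total, scaled with TMM factors), and such limits cover counting error only. The targeted gene *Dnmt1* had 416 ± 43.4 CPM in WT and 282 ± 1.59 CPM in KO (SD, n = 2, edgeR adjusted p = 0.0511), with both KO libraries below both WT libraries. These counts cover the whole gene and not the deleted exons alone. Of 11 preoptic and GABAergic interneuron markers, all 11 passed the expression filter, their summed level was 1606 and 1460 CPM in WT and 1251 and 1382 CPM in KO, and 0 passed the edgeR test in either direction (2 with an unadjusted p under 0.05, *Slc32a1* and *Dlx5*), and *Hmx3*, whose regulatory sequences drive the Cre, had 84.3 ± 8.11 CPM in WT and 82.8 ± 15.5 CPM in KO (SD, n = 2). WT replicate 1 stood apart, with 8.66% of its counts on mitochondrial rRNA against 1.51% to 2.32% in the others.

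*Zic1*, *Zic4* and *Six6* fell in KO, 0 of the 7 genes that could be tested rose, and *Zic2* and *Zic5* overlapped between genotypes. Over the 16832 genes left by edgeR's expression filter, the package's quasi-likelihood test with Benjamini-Hochberg adjustment called 0.570% lower and 7.33% higher in KO at an adjusted p under 0.05. Of the 8 genes, 7 passed that filter, 3 of them were called lower and 0 higher, and their median log2 fold change (KO minus WT) was -0.76 against -0.03 over all tested genes. For counts scaled to depth, both KO libraries were under the lower WT library for 5 of the 7 tested genes, a pattern found in 25.2% of all tested genes, and above the higher one for 0, a pattern found in 28.3%. *Six6* passed the filter only through its WT libraries and *Rax* did not pass, so the count over the tested genes is a description. In a sorted population measured in bulk, fewer cells expressing a gene and less RNA per cell cannot be told apart.

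**Figure D1:**
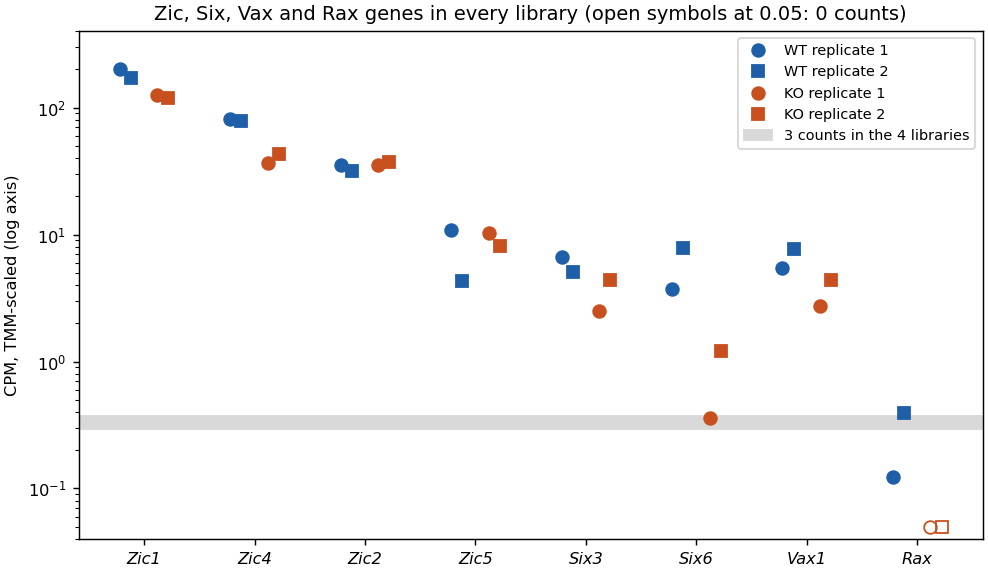
Level of each of the 8 genes in each of the 4 libraries, in TMM-scaled CPM on a log axis, with WT and KO libraries as separate symbols and open symbols for 0 counts. The grey band is the level of 3 counts, both KO libraries lie under both WT libraries for *Zic1*, *Zic4*, *Six3*, *Six6* and *Vax1*, *Zic2* and *Zic5* overlap, and *Rax* had 0 counts in both KO libraries.

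*Zic1* (ENSMUSG00000032368, chr9:91358058-91365810, minus strand of GRCm38) encodes a zinc-finger factor of the medial forebrain and cerebellum. It had 1636 and 1738 counts for WT replicates 1 and 2 against 1067 and 1080 for KO replicates 1 and 2. Both KO libraries were lower than both WT libraries, and the KO libraries lay close together. Its level was 187 ± 23.2 CPM in WT and 123 ± 5.59 CPM in KO (SD, n = 2), and the log2 fold change was -0.60 (standard error 0.15, 95% interval -0.95 to -0.26, edgeR adjusted p = 0.0494). The adjusted p was close to the threshold, and the call was lost without KO replicate 1 (log2 fold change -0.64, adjusted p = 0.284), without KO replicate 2 (-0.55, adjusted p = 0.535), with library size alone as scaling (-0.48, adjusted p = 0.104), with upper quartile scaling (-0.56, adjusted p = 0.0518) and with at least 10 counts required in every library (-0.57, adjusted p = 0.0684). It was lost with a smaller fold when libraries were scaled on neuron markers (-0.10, adjusted p = 0.655) or interneuron markers (-0.37, adjusted p = 0.268).

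*Zic4* (ENSMUSG00000036972, chr9:91362413-91389348, plus strand) is the partner of *Zic1*, and the annotated starts of the pair lie 3397 bases apart on opposite strands. It had 655 and 802 counts for WT replicates 1 and 2 against 310 and 390 for KO replicates 1 and 2. The groups were apart, with both KO libraries below both WT libraries. The level was 79.9 ± 1.93 CPM in WT and 39.9 ± 4.31 CPM in KO (SD, n = 2), and the log2 fold change was -1.0 (standard error 0.15, 95% interval -1.36 to -0.65, edgeR adjusted p = 0.00523). The call was lost without KO replicate 1 (-0.88, adjusted p = 0.0797) and with libraries scaled on neuron markers (-0.51, adjusted p = 0.0615). The exons of *Zic1* and *Zic4* share 60 bases, 1.05% of the *Zic1* exons and 0.581% of the *Zic4* exons, where reads of the genes could be mixed if strand was not used. *Gm37477*, on the other strand over 4.53% of the *Zic4* exons, had 11, 8, 5 and 5 counts.

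*Zic2* (ENSMUSG00000061524, chr14:122475435-122479852, plus strand), required for midline formation in the forebrain, did not follow *Zic1* and *Zic4* in its values. It had 285 and 321 counts for WT replicates 1 and 2 against 296 and 339 for KO replicates 1 and 2. The groups overlapped. Its level was 33.4 ± 2.78 CPM in WT and 36.3 ± 1.52 CPM in KO (SD, n = 2), and the log2 fold change was 0.12 with a 95% interval from -0.26 to 0.50 (edgeR adjusted p = 0.716). With libraries scaled on neuron markers it was 0.62 (edgeR adjusted p = 0.0366), where the median of all genes was 0.47.

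*Zic5* (ENSMUSG00000041703, chr14:122456795-122465677, minus strand), the partner of *Zic2*, starts 9758 bases from it on the other strand, and the exons of the pair do not overlap. It had 88 and 44 counts for WT replicates 1 and 2 against 86 and 74 for KO replicates 1 and 2. WT replicate 2 was the lowest library, and the groups overlapped. The log2 fold change of 0.29 (standard error 0.43, 95% interval -0.71 to 1.28, edgeR adjusted p = 0.743) rested on the WT library used. It was 1.08 without WT replicate 1 (adjusted p = 0.0182) and -0.26 without WT replicate 2. *2610035F20Rik*, which starts 236 bases from *Zic2*, had WT counts of 15 and 33 and KO counts of 17 and 32. The neighbour *Gm5089* was without counts in WT (0 in each library) and had 19 and 21 in the KO libraries. Its KO mean was 6.86-fold the mean floor of 0.333 CPM that 3 counts per WT library give (edgeR adjusted p = 0.00995). *Gm5089* passed the expression filter only through its KO libraries, so this p-value is a description.

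Within a library, a ratio of counts between genes does not depend on library scaling. For each *Zic2* count there were 5.74 and 5.41 *Zic1* counts in WT replicates 1 and 2, and 3.60 and 3.19 in KO replicates 1 and 2. The corresponding *Zic4* to *Zic2* ratios were 2.30 and 2.50 in WT, and 1.05 and 1.15 in KO. Both ratios were lower in both KO libraries, and the exact two-sided permutation test gave p = 0.333, the smallest value that 2 against 2 libraries allow (adjusted p = 0.444 over the 20 ratios computed). The *Zic4* to *Zic1* ratio was 0.400 and 0.461 in WT, and 0.291 and 0.361 in KO, again without overlap (exact permutation p = 0.333). The *Zic5* to *Zic2* ratio, 0.309 and 0.137 in WT and 0.291 and 0.218 in KO, overlapped (exact permutation p = 1). For each 1000 counts of the interneuron markers there were 22.03 and 21.5 *Zic2* counts in WT and 28.1 and 27.0 in KO, while *Zic4* had 50.6 and 53.8 against 29.5 and 31.1, so that KO libraries were above WT for *Zic2* and below it for *Zic4*. Zinc-finger domains are similar among ZIC proteins, and how reads shared by such stretches were counted is not given in the sources used here.

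**Figure D2:**
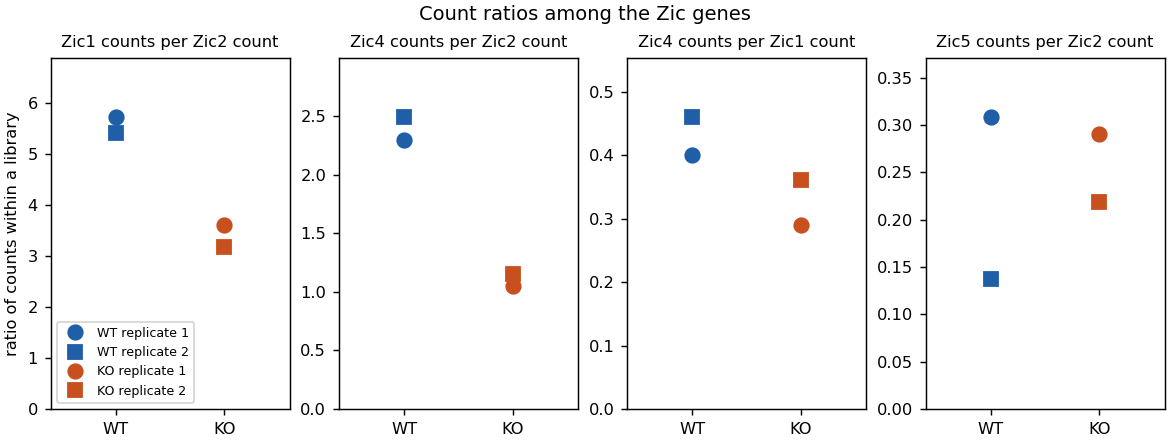
Ratios of counts between Zic genes within each of the 4 libraries, with 1 panel per ratio, WT and KO on the horizontal axis and 1 point per library. *Zic1* to *Zic2* is at least 5.41 in WT and at most 3.60 in KO, while *Zic5* to *Zic2* overlaps.

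*Six6* (ENSMUSG00000021099, chr12:72939892-72944899, plus strand), a factor of the retina, hypothalamus and pituitary, showed the largest fold among the tested genes of the 8. It had 30 and 80 counts for WT replicates 1 and 2 against 3 and 11 for KO replicates 1 and 2. Both KO libraries were lower than both WT libraries, and the WT libraries were far apart. The level was 5.78 ± 2.91 CPM in WT and 0.784 ± 0.604 CPM in KO (SD, n = 2), and the log2 fold change was -2.85 (standard error 0.65, 95% interval -4.35 to -1.36, edgeR adjusted p = 0.0341). Each single library moved this value, which was -2.22 without WT replicate 2, -2.24 without KO replicate 1, -3.28 without WT replicate 1 and -3.98 without KO replicate 2. With limma-voom the adjusted p was 0.0644. *Six6* passed the expression filter only through its WT libraries, where it is high, so its p-values are a description. The antisense gene *4930447C04Rik*, which covers 4.79% of the *Six6* exons, had WT counts of 67 and 13 and KO counts of 9 and 12, so that its higher WT library was not that of *Six6*.

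*Six3* (ENSMUSG00000038805, chr17:85613608-85629302, plus strand), which keeps the anterior forebrain free of Wnt signalling, had 54 and 52 counts for WT replicates 1 and 2 against 21 and 40 for KO replicates 1 and 2. Both KO libraries were lower than both WT libraries, but KO replicate 2 lay near the WT values. The level was 5.90 ± 1.14 CPM in WT and 3.45 ± 1.35 CPM in KO (SD, n = 2), and the log2 fold change of -0.76 did not pass the test (standard error 0.41, 95% interval -1.71 to 0.19, edgeR adjusted p = 0.317). It ranged from -0.40 without KO replicate 1 (adjusted p = 0.885) to -1.23 without KO replicate 2 (adjusted p = 0.502), and was -0.26 with libraries scaled on neuron markers (adjusted p = 0.655). For each 1000 counts of the neuron markers there were 1.05 and 0.886 *Six3* counts in WT and 0.577 and 1.03 in KO, so that the groups overlapped on that scale. For each 1000 counts of the interneuron markers there were 4.17 and 3.49 in WT and 2.00 and 3.19 in KO, without overlap. Its long non-coding neighbour *Six3os1* had WT counts of 207 and 276 and KO counts of 134 and 104. *Six3os1* fell by 0.95 on the log2 scale (standard error 0.23, edgeR adjusted p = 0.0432), and its exons overlap 1.95% of the *Six3* exons. The *Six6* to *Six3* ratio of counts was 0.556 and 1.54 in WT, and 0.143 and 0.275 in KO, without overlap (exact permutation p = 0.333).

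*Vax1* (ENSMUSG00000006270, chr19:59166187-59170056, minus strand), needed for the optic stalk and for forebrain commissures, had 44 and 78 counts for WT replicates 1 and 2 against 23 and 40 for KO replicates 1 and 2. Scaled for depth, both KO libraries were lower than both WT libraries, and KO replicate 2 lay near WT replicate 1. The level was 6.55 ± 1.54 CPM in WT and 3.57 ± 1.18 CPM in KO (SD, n = 2), and the log2 fold change of -0.88 did not pass the test (standard error 0.39, 95% interval -1.78 to 0.03, edgeR adjusted p = 0.234). It was -1.10 without WT replicate 1 (adjusted p = 0.0293), -0.62 without WT replicate 2 (adjusted p = 0.365), -0.57 without KO replicate 1 (adjusted p = 0.800) and -1.26 without KO replicate 2 (adjusted p = 0.406). Scaled on neuron markers it was -0.39 (adjusted p = 0.487), and *Vax1* counts for each 1000 of these markers, 0.858 and 1.33 in WT and 0.632 and 1.03 in KO, overlapped. For *Rax* (ENSMUSG00000024518, chr18:65928277-65939787, minus strand) WT gave 1 and 4 counts and both KO libraries 0. The exact Poisson 95% interval of a count of 0 reaches 3.69 counts, and 3 counts correspond to 0.357 and 0.330 CPM in KO replicates 1 and 2. A difference in *Rax* was not detectable at this depth, and no fold was computed. The antisense gene *Raxos1*, over 27.4% of the *Rax* exons, had 0 counts in all 4 libraries.

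**Figure D3:**
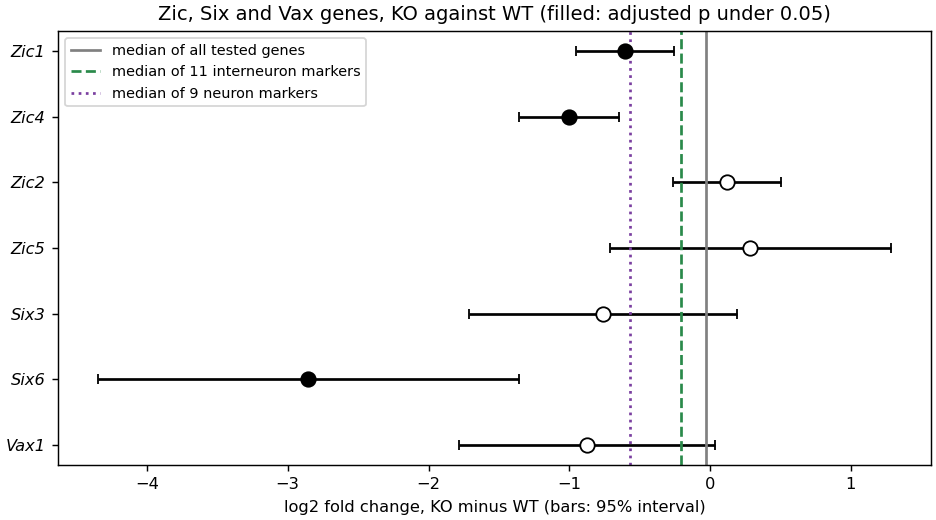
Log2 fold change (KO minus WT) of the 7 tested genes with 95% intervals from edgeR's quasi-likelihood fit, with filled points for an adjusted p under 0.05. *Zic1*, *Zic4* and *Six6* are filled and lie below 0, and the intervals of *Zic2*, *Zic5*, *Six3* and *Vax1* include 0.

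Levels between genes were compared as CPM per kb of exon. In WT, *Zic1* had 32.8 CPM per kb, *Zic2* 11.6, *Zic4* 7.74, *Vax1* 5.87, *Zic5* 1.56, *Six6* 1.44 and *Six3* 1.08. The last 3 overlapped in their WT libraries and are not ordered. In KO the values were 21.6 for *Zic1*, 12.6 for *Zic2*, 3.86 for *Zic4*, 3.20 for *Vax1*, 1.88 for *Zic5*, 0.634 for *Six3* and 0.196 for *Six6*, and *Zic4* and *Vax1* overlapped. Per kb, *Zic1* was the most abundant and *Zic2* the next in both genotypes. The place of *Zic2* rests on the length of all annotated exons, 2880 bases against 10335 for *Zic4*. In CPM without length, *Zic4* was above *Zic2* in WT (79.9 against 33.4). In KO (39.9 against 36.3 CPM) their libraries overlapped.

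Cell type markers moved with genotype as well. The summed level of 9 general neuron markers was 6369 and 5752 CPM in WT, and 4325 and 4257 CPM in KO, and 3 of them (*Stmn2*, *Elavl4* and *Syt1*) were called lower. All 9 astrocyte markers were called higher, with sums of 244 and 230 CPM in WT against 4034 and 3817 CPM in KO, and *Gfap*, which marks astrocytes, had 0 counts in WT and 149 and 198 in KO. Called higher were also 6 of 7 oligodendrocyte markers (sums of 130 and 154 CPM in WT, 578 and 557 CPM in KO), 7 of 8 mural cell markers (51.5 and 56.0 CPM, then 379 and 366 CPM) and 3 of 8 radial glia markers (1051 and 1055 CPM, then 1794 and 1681 CPM), with 0 of these lists' genes called lower. *Slc1a3* is in both the astrocyte and the radial glia list, and without it the radial glia sums were 980 and 978 CPM in WT and 1201 and 1135 CPM in KO. Scaled on the neuron markers, under which the median log2 fold change of all genes was 0.47, *Six6* was -2.38 (edgeR adjusted p = 0.0181) and *Zic2* 0.62 (adjusted p = 0.0366), while *Zic1* and *Zic4* were not called. Scaled on the interneuron markers, with a median of all genes of 0.19, *Zic4* was -0.79 (adjusted p = 0.00757) and *Six6* -2.67 (adjusted p = 0.00142), and *Zic1* was not called. The part of these cell types in the results was not tested.

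Markers of tissues in which some of these genes are used in the embryo were also followed. The choroid plexus list summed to 47.3 and 61.3 CPM in WT, and 4.76 and 5.95 CPM in KO, with *Ttr* called lower of 3 tested genes. *Ttr* made up most of that difference, and the other 5 genes summed to 6.45 and 6.07 CPM in WT and 3.80 and 4.85 CPM in KO. The 7 tanycyte markers summed to 43.8 and 54.6 CPM in WT and 155 and 148 CPM in KO, and of the 6 tested, *Gpr50* was called lower (51, 54, 2 and 5 counts) and *Dio2*, which astrocytes express too, higher. Without *Dio2* the tanycyte sums were 42.8 and 54.3 CPM in WT and 36.9 and 40.5 CPM in KO. The pituitary list stayed at 0.881 to 4.31 CPM, with *Pitx1* and *Cga* at 0 in all libraries, and the ependymal list at 7.70 to 10.3 CPM with 0 of 2 tested genes called. The 11 meningeal genes summed to 36.1 and 39.4 CPM in WT and 49.9 and 43.7 CPM in KO, and of the 6 tested, *Foxc1* was called higher. The part of these tissues in the values of *Six6*, *Rax* and the Zic genes was not tested.

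**Figure D4:**
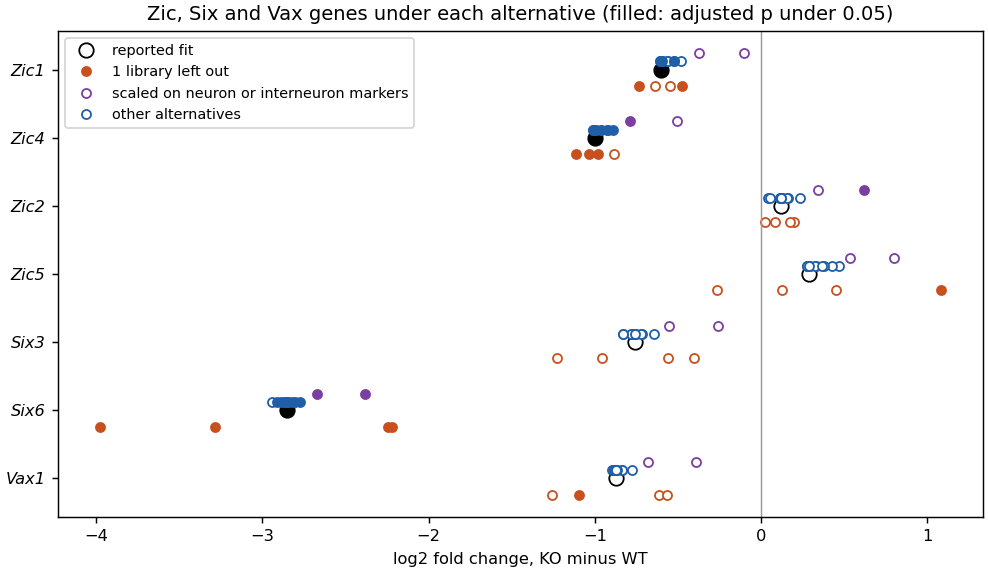
Log2 fold change (KO minus WT) of the 7 tested genes in the reported fit (black) and under each alternative, with filled points for an adjusted p under 0.05. *Six6* stays at or below -2.22 in all fits shown, *Zic1* reaches -0.10 under scaling on neuron markers, and *Zic5* lies on both sides of 0 when 1 library is left out.

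Other genes of the same families and networks were read from fixed lists. Over all tested genes 7.33% were called higher and 0.570% lower, and counts of calls in such short lists are a description beside these shares. Of 6 further genes related to *Zic1*, *Six3* or *Vax1*, 3 were tested, and *Six5* rose (WT counts of 10 and 17, KO counts of 56 and 77, log2 fold change 2.36, edgeR adjusted p = 0.00928). *Six4* had WT counts of 19 and 28 and KO counts of 6 and 4 (-2.13, adjusted p = 0.0783). Of 12 EYA, DACH and TLE genes, cofactors of SIX3 and its relatives, all tested, 1 rose, 0 fell, and the median log2 fold change was 0.07. The gene that rose was *Eya1*, a phosphatase and coactivator of this family, with WT counts of 71 and 54 and KO counts of 246 and 183 (1.82, adjusted p = 0.0101).

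Of 17 other factors of the anterior neural plate, eye field and rostral forebrain, 12 were tested, 2 rose, 1 fell, and the median log2 fold change was 0.32. For this list and those below, the shares over all tested genes were 7.33% called higher and 0.570% called lower. *Fezf1*, a zinc-finger repressor of the rostral forebrain, fell from WT counts of 92 and 112 to KO counts of 21 and 20 (-2.25, edgeR adjusted p = 0.00369). *Nr2e1*, a nuclear receptor of neural stem cells, rose from 35 and 47 to 186 and 178 counts (2.21, adjusted p = 0.00124), and *Emx2*, a dorsal telencephalic homeobox gene, from 16 and 17 to 75 and 73 (2.21, adjusted p = 0.00746). Of 11 midbrain, hindbrain and dorsal neural tube factors, 4 were tested and 0 were called, among them *Irx1* (0.22, adjusted p = 0.692) and *Irx2* (-0.27, adjusted p = 0.770). Of 10 genes described as targets of the 8 factors, 6 were tested, 1 rose and 0 fell. That gene was *Apoe*, the lipid carrier that astrocytes make in quantity, with WT counts of 167 and 299 and KO counts of 3354 and 3799 (4.02, adjusted p = 1.18e-05), beside the rise of the astrocyte markers, whose part in it was not tested.

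**Figure D5:**
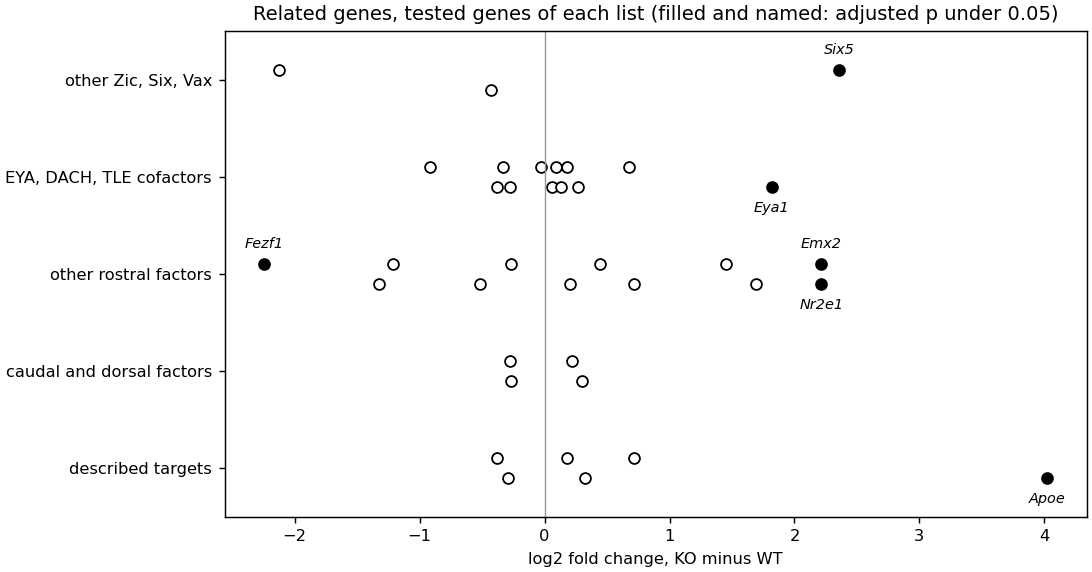
Log2 fold change (KO minus WT) of the tested genes in each of 5 lists of related genes, 1 point per gene, with filled and named points for an adjusted p under 0.05. *Fezf1* is the only named point below 0, and *Six5*, *Eya1*, *Nr2e1*, *Emx2* and *Apoe* lie above it.

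The genes whose library-to-library pattern was closest were found among 12055 genes by Euclidean distance of centred log2 CPM over the 4 libraries, a description over few points. *Zic1* was closest to *Nsun6* (distance 0.0164) and *Stx7* (0.0359), and *Zic2* to *Irak1* (0.00336) and *Ncoa6* (0.0183). *Zic4* was closest to the proneural gene *Neurog2* (0.102), with WT counts of 110 and 128 and KO counts of 53 and 63, and to *Fosb* (0.107). For *Zic5* the closest were *Uty* (0.0820) and *Zfp961* (0.103), for *Six3* the non-coding genes *Gm12371* (0.143) and *Gm26860* (0.146), and for *Vax1* *Vgf* (0.105) and *Arhgdig* (0.114).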

How the data were processed

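RNA of tdTomato-positive cells, sorted with exclusion of DAPI-positive cells, was sequenced in 2 WT and 2 KO libraries. The authors deposited raw counts per Ensembl gene, without normalization. The submitters' processing notes name CASAVA 1.8.2, STAR 2.5.2a, featureCounts 1.5.0-p1 and the builds mm10 and GRCm38, without roles. The annotation, strand handling and treatment of multi-mapping reads are not given in the sources used here.

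Of 55573 identifiers, 55480 matched GENCODE M21, which gave symbols and positions. Genes were filtered with edgeR's filterByExpr, scaled with TMM and compared by genotype, without covariates, in the quasi-likelihood framework of edgeR 4.0.16 (R 4.3.3, limma 3.58.1). Benjamini-Hochberg adjustment of p-values covered all 16832 genes tested, and the code was tested on simulated data. CPM used TMM-scaled totals. Replicate libraries differed beyond sampling noise (chi-square divided by its degrees of freedom was 57.2 in WT and 4.28 in KO), so none was a second copy of another. This does not show that they are separate biological samples, and n = 2 counts libraries. The 8 genes and all lists were chosen with earlier results of these data known.

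Genes named were the 8 genes, *Dnmt1*, genes within 10 kb of them, up to 4 called genes of each list with the largest fold (the 2 most abundant where none was called), and the 2 genes closest in pattern. *Six4*, *Hmx3*, *Slc32a1*, *Dlx5* and the cell type markers named were chosen after their values were seen. Alternatives were DESeq2 1.42.0, limma-voom, 3 other scalings, 2 other filters, the replicate block, a length and GC correction, both together, and each library left out. Scaling on neuron or interneuron markers and leaving out 391 mitochondrial and rRNA genes, and marker sums without 1 gene, were chosen after seeing the data.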

Additional observations from a re-analysis of the deposited data

How the results depend on the processing

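The reported fit called 1233 genes higher and 96 lower in KO, and 0 higher and 3 lower of the 8 genes. Genes called lower were 247 with DESeq2, 573 without a filter, 52 with at least 10 counts in every library, and 36 with scaling on neuron markers. With the length and GC correction 1950 were higher and 782 lower, and with that correction and the replicate block 1988 and 848. Scaling on neuron markers gave 4274 higher genes and scaling on interneuron markers 2165. Of the 8 genes, 1 was called lower under the minimum of 10 counts, where *Six6* was not tested, and with scaling on neuron markers 1 was lower and 1 higher. Leaving out 1 library gave 900 to 2578 genes higher, 51 to 2180 lower, 0 to 1 of the 8 genes higher and 1 to 4 lower, and *Zic5* ranged from -0.26 to 1.08 on the log2 scale. Those fits assume that the lone library varies like the other genotype, and their prior degrees of freedom were so large that a gene's own spread hardly entered its p-value. The share of calls that were higher was 92.8% in the reported fit, 72.4% with the replicate block, 71.4% with the correction, 70.1% with both, 75.8% without a filter, 66.5% without WT replicate 1 and 48.2% without WT replicate 2. With library size alone the median log2 fold change of all genes was 0.08, against -0.03. The causes were not tested.

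Libraries with the same replicate number share only that number, and their deviations correlated at 0.137 across genes. With the replicate block 1625 genes were higher and 619 lower, and *Zic1* was -0.60 (adjusted p = 0.00774), *Zic4* -1.0 (adjusted p = 0.000425) and *Six6* -2.91 (adjusted p = 0.00301). With 2 libraries per genotype, the 95% intervals of *Six3*, *Vax1* and *Zic5* are wide, and low counts limit *Six6* and *Rax*.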
